A study of Mus musculus with 32 samples.

Results

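The nuclear genome holds pieces of the mitochondrial genome that were copied into the chromosomes, and 10 such pieces are annotated as separate genes and carry counts in a frontal cortex RNA table that has 0 mitochondrially encoded rows among its 23958 genes. The 10 were given as a list of symbols (Gm29216, Gm28437, Gm10925, Gm13339, Gm11410, Gm11408, Gm28438, Gm28439, Gm10222 and Gm13341), and each was matched here by sequence to the mitochondrial gene it copies. The RNA came from the frontal cortex of 32 mice inoculated with gut microbiota of another species: 12 mice received microbiota of humans, 8 of squirrel monkeys and 12 of macaques. All groups were inoculated, and the labels give no mouse without an inoculation. The sources used here do not give the strain, sex or age of the mice or the number of microbiota donors. The labels also name 6 batches, none of which mixes donor species: human microbiota are in A and B, those of squirrel monkeys in C and D and those of macaques in E and F. The library names place each donor species in its own plate columns, so donor species cannot be told apart from batch or plate column. Batches C and D share a plate column and lie in different plate rows. Libraries were made with TagSeq, which reads a short tag near the 3′ end of a transcript, with reads of 100 bases. Levels are given as CPM, a gene's counts scaled by the size of its library.

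Mitochondria keep a small circular genome of their own, which is transcribed from both strands as long RNAs and then cut into separate messages. Its protein-coding genes encode core subunits of the respiratory chain: Nd genes belong to complex I, Cytb to complex III, Co genes to complex IV and Atp genes to complex V. Neurons depend on this chain for ATP, and its messages are among the most abundant in brain tissue. Nuclear copies of mitochondrial DNA are in general not functional genes, and where a copy is identical to its source a short read fits both places equally well. Whether the counts described below came from mitochondrial RNA or from the copies themselves was not tested, because count tables hold no reads.

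The label of the list calls the copies near-identical to mitochondrial genes, and the sequences bore this out for some members only. Against the mitochondrial transcripts of GENCODE release M21, the copies Gm28437 (of mt-Co3), Gm10925 (mt-Atp6), Gm28439 (mt-Nd4) and Gm10222 (mt-Nd4l) were identical over their whole aligned length. Gm29216 (mt-Co1) and Gm28438 (mt-Nd3) had 1 mismatch each, over 483 and 345 bases. These 6 lie on chromosome 1. Gm13339 (mt-Nd2, 96.7% identity) and Gm13341 (mt-Co2, 95.9%) lie on chromosome 2 within Myo3a, on the other strand. Gm11408 (mt-Nd6, 93.6%) and Gm11410 (mt-Cytb, 92.9%) lie on chromosome 4 and are annotated as processed pseudogenes. Together the members copy 10 of the 13 mitochondrial mRNAs, and mt-Nd1, mt-Atp8 and mt-Nd5 have none among them.

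The identity decides how many reads of 100 bases would fit both places without a mismatch. In the 4 identical copies every window of 100 bases was shared with the mitochondrial gene, and in Gm29216 380 of 384 windows were. In Gm13341 88 of 585 windows were shared, in Gm13339 30 of 411, and in Gm11408 and Gm11410 none of 420 and 1043. The last 100 aligned bases, where 3′ tags mostly fall, are shown for the members that the results turn on, read 5′ to 3′ from GENCODE M21 transcripts, with bases that differ between copy and source in capitals. Gm28437 stands for the identical copies, so its source is not repeated.
Gm28437: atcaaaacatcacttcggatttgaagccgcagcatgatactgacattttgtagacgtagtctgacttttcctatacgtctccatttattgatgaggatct
Gm13341: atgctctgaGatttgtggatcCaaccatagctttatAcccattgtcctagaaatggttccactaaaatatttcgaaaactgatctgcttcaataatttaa
mt-Co2: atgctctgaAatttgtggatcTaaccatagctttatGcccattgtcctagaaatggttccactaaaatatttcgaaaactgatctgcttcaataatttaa
Gm11408: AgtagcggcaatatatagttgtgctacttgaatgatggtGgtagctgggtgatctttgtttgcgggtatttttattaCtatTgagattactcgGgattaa
mt-Nd6: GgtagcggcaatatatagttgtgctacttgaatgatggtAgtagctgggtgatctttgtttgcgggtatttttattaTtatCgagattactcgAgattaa
Gm11410: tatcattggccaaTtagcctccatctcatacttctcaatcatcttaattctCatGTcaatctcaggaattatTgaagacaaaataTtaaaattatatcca
mt-Cytb: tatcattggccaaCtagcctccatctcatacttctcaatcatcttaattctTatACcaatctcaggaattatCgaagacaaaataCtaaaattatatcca
Gm13339: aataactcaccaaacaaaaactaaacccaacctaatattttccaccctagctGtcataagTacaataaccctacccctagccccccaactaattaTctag
mt-Nd2: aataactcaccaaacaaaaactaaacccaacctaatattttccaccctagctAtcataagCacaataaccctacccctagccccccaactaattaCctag

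Gm13341 differs from mt-Co2 by 3 bases in this stretch and is identical over the last 63 bases. Further upstream it lacks 12 bases of mt-Co2, and no other member has a gap. The stretch around that gap is shown with the 12 missing bases and the mismatches in capitals.
Gm13341: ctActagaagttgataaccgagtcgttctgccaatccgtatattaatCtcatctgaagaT
mt-Co2: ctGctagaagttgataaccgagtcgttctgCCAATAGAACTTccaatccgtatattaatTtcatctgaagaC

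A search of all transcripts found 3 other rows of the table that aligned to a mitochondrial mRNA over at least 100 bases at 95% identity or more: Gm28661 (mt-Co2, identical, chromosome 1), Gm13340 (mt-Co1, 97.6%, chromosome 2) and Gm4076 (mt-Nd5, 95.2%, chromosome 13). At 90 to 95% there were 4 more, of which Gm11407 (mt-Nd5, 92.3%, chromosome 4) had enough counts to be tested. These 4 tested rows are called further copies below. All members but Gm28439 reach to within 3 bases of the end of the mitochondrial gene model. Gm28439 stops 502 bases short of the end of mt-Nd4, Gm4076 stops 165 bases short of the end of mt-Nd5 and Gm11407 21 bases short of it.

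The 10 members together held a median of 4.29% of all counts of a mouse (range 3.54 to 5.40%, n = 32), and 5.14% with the further copies added. By donor species the share was 3.54, 4.16 and 4.76% (lowest, median and highest) in human mice, 3.59, 4.43 and 4.94% in squirrel monkey mice, and 3.91, 4.39 and 5.40% in macaque mice. The 3 ranges overlapped widely. By batch the medians were 4.16% in A, 4.16% in B, 4.51% in C, 4.34% in D, 4.24% in E and 4.54% in F. The order of the members by count was nearly fixed. Gm29216, Gm28437, Gm10925, Gm13339 and Gm11410 held ranks 1 to 5 in 32 of 32 mice, and Gm28439, Gm10222 and Gm13341 held ranks 8 to 10 in all of them. Gm11408 and Gm28438 changed places, with Gm11408 the higher in 27 of 32 mice. Gm29216 held a median of 24.1% of the members' counts and Gm13341 0.247%, a comparison of tag counts that takes no account of the lengths of the copies.

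**Figure D1:**
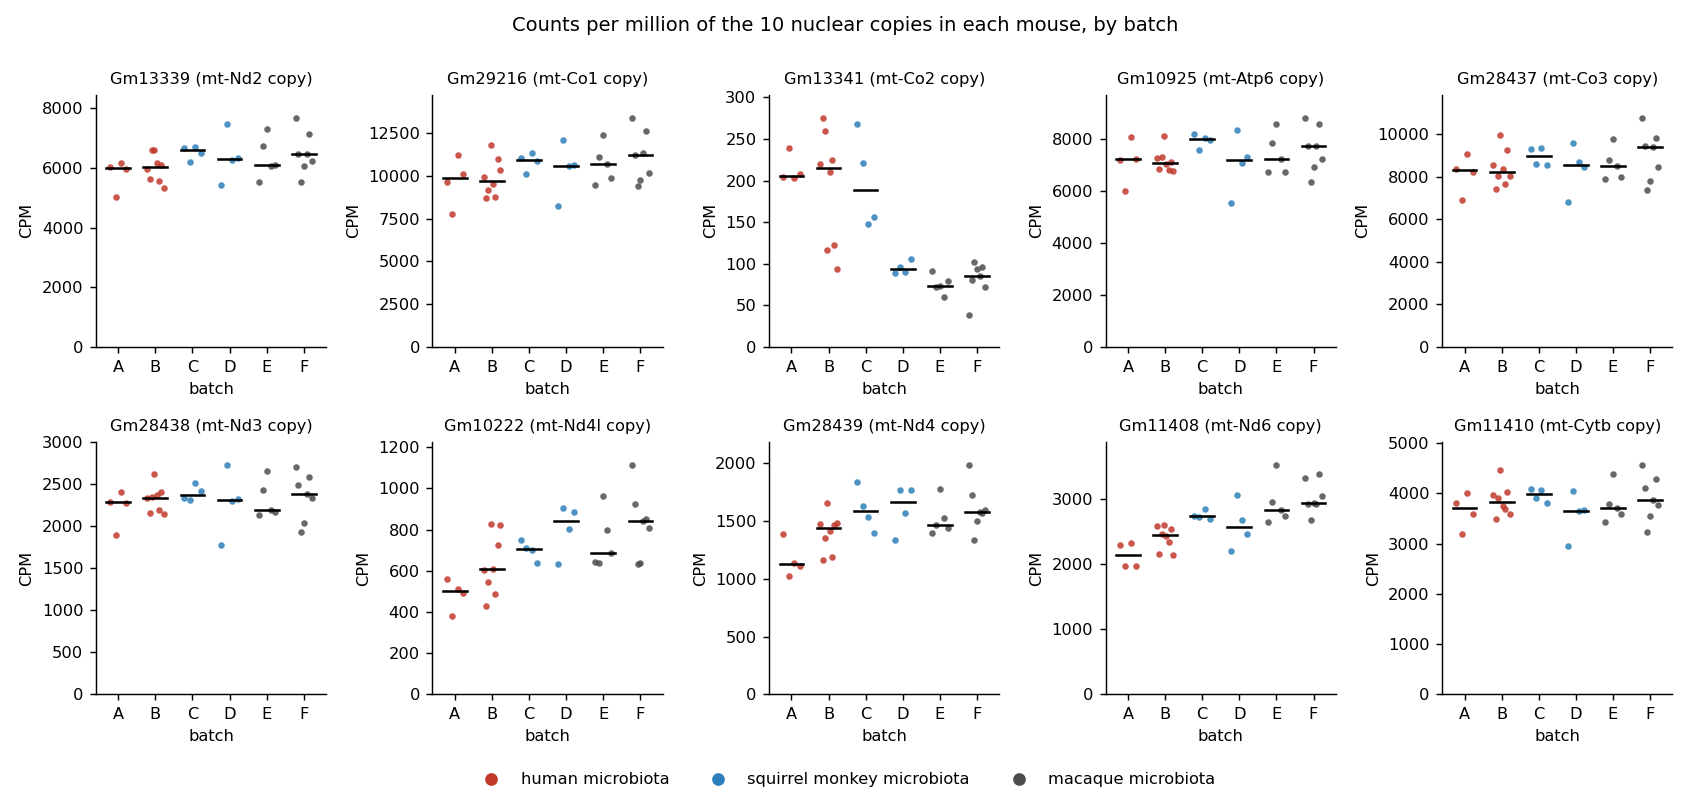
CPM (linear axis from 0) of each member in each of the 32 mice, grouped by batch and coloured by the donor species of the microbiota, with a bar at each batch median, and with the panels in the order of the mitochondrial genes. Gm13341 is high in batches A, B and C with 3 low mice in B, Gm11408 is lower in every human mouse than in every macaque mouse, and Gm10222 and Gm28439 are lowest in batch A.

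Human against macaque microbiota was the comparison with the most differences among members. Gm13341 rose in human mice, and Gm11408, Gm10222 and Gm28439 fell, so that 4 of 10 members passed the test, 1 higher and 3 lower. Among all 12651 genes tested 8.01% passed it, 4.47% higher and 3.54% lower. The test was edgeR's quasi-likelihood test with Benjamini-Hochberg adjustment over all genes and a threshold of 0.05. Of the 10 log2 fold changes 9 were negative, with a median of -0.10, against a median of -0.00105 over all genes tested. The 9 are not separate results, because these copies rose and fell together over the mice. In 7 refits of this comparison an uncalled value changed sign. The F-test for any difference between the 3 donor groups called the same 4 members, where 6.15% of all genes were called.

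Gm11408, the copy of mt-Nd6, a complex I subunit and the only mitochondrial mRNA read from the opposite strand, had 1968, 2329 and 2599 CPM (lowest, median and highest) in human mice. In squirrel monkey mice it had 2204, 2705 and 3055 CPM, and in macaque mice 2648, 2932 and 3516.5 CPM. Every human mouse lay below every macaque mouse, which was so for 0.0474% of all genes tested, with the reverse in 0.15%, and squirrel monkey mice overlapped both. The mean fell from 2987 ± 280.2 to 2316 ± 220.0 CPM (SD, n = 12 each), a log2 fold change of -0.37 ± 0.056 (SE) with an adjusted p of 2.44e-05 by edgeR. It was lower in squirrel monkey than in macaque mice by a log2 value that did not pass the test (-0.16, adjusted p = 0.249 by edgeR). The batch medians followed the order F, E, C, D, B and A, from 2937 down to 2135 CPM. Batch A was below B within the human mice (log2 difference -0.17), and this did not pass the test either (adjusted p = 0.418 by edgeR).

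Gm10222 copies mt-Nd4l, a small membrane subunit of complex I. It had 379, 555 and 828 CPM (lowest, median and highest) in human mice, 632, 730.1 and 905 CPM in squirrel monkey mice, and 634, 804 and 1113 CPM in macaque mice. In 9 of 12 human mice it was below the lowest macaque mouse, and the other 3 lay within the macaque range. Its log2 fold change was -0.45 ± 0.11 (SE, adjusted p = 0.00637 by edgeR). Gm28439 overlaps Gm10222 on chromosome 1 and copies the first part of mt-Nd4, a core proton-pumping subunit. It had 1024, 1374 and 1658 CPM in human, 1336, 1600.5 and 1835 CPM in squirrel monkey and 1335, 1549 and 1986 CPM in macaque mice. In 11 of 12 human mice it lay below the macaque median, and 5 lay below the lowest macaque mouse. Its log2 fold change was -0.25 ± 0.071 (SE, adjusted p = 0.0206 by edgeR).

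Both calls were lost in some fits with fewer mice or another model. Without human batch A the log2 fold changes were -0.33 for Gm10222 and -0.17 for Gm28439 (adjusted p = 0.0985 and 0.201 by edgeR), and without macaque batch F -0.36 and -0.21 (0.155 and 0.231). Library totals also differed between the groups, with medians of 1657174.5 counts in human and 1503734.5 in macaque mice. With the log2 library total as a covariate they were -0.31 and -0.165 (adjusted p = 0.0773 and 0.17 by edgeR), while Gm11408 and Gm13341 still passed. Gm28439 also missed the threshold without batch E and with counts summed per batch, where its fold changes were not smaller, -0.29 and -0.30 (adjusted p = 0.0525 and 0.0602 by edgeR).

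Of the 4 further copies 2 were called, both lower. Gm28661 and Gm13340 were not, and Gm13340 had a log2 fold change of human against macaque of -0.13 (adjusted p = 0.304 by edgeR). Gm11407 and Gm4076, both copies of mt-Nd5, a large complex I subunit, fell in human against macaque mice by 0.43 and 0.23 on the log2 scale (adjusted p = 0.000412 and 0.0252 by edgeR). Gm11407 had 325, 441 and 575 CPM in human and 458, 590.0 and 754 CPM in macaque mice, and 12 of 12 human mice lay below the macaque median. Gm4076 had 820, 1022 and 1227 CPM in human and 974, 1159 and 1450.3 CPM in macaque mice, with 11 of 12 human mice below the macaque median. Within the human mice batch A was below B for Gm11407 and Gm4076 (log2 differences -0.29 and -0.26). These differences did not pass the test (adjusted p = 0.34 and 0.32 by edgeR). Refits with other settings were made for the members only. The 5 rows called lower are copies of mt-Nd4l, mt-Nd4, mt-Nd5 and mt-Nd6, which follow each other on the mitochondrial genome. That grouping was made after the values were seen and has no test.

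**Figure D2:**
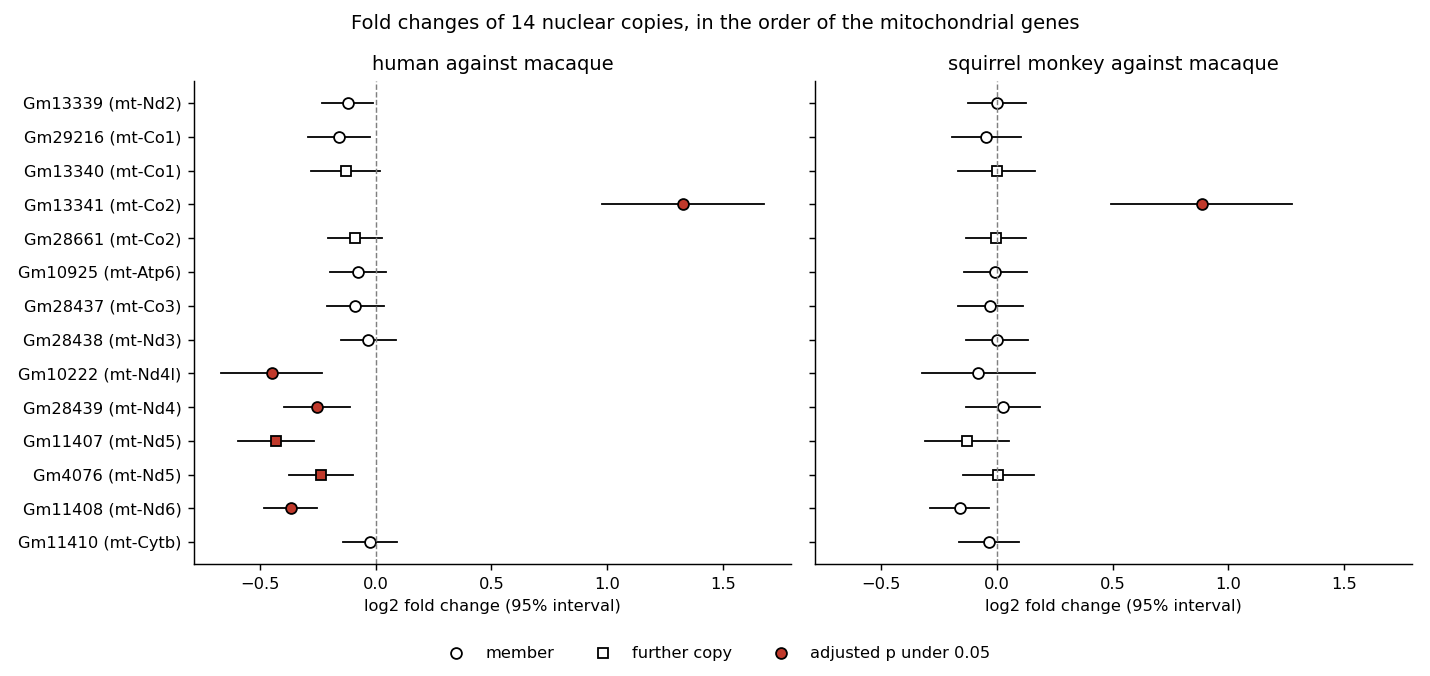
Log2 fold changes with 95% intervals of the 10 members and 4 further copies, in the order of their mitochondrial genes, for human (left) and squirrel monkey (right) against macaque microbiota. Filled symbols passed the adjusted threshold: on the left the copies from mt-Nd4l to mt-Nd6 are below 0 and Gm13341 is at 1.33, and on the right Gm13341 alone passed, at 0.88.

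The other 6 members did not pass the test in any donor comparison. In complex I, Gm13339 (mt-Nd2) had 5009, 5999 and 6602 CPM in human, 5432, 6420.0 and 7470.4 CPM in squirrel monkey and 5511, 6343 and 7686 CPM in macaque mice. Gm28438 (mt-Nd3) had 1889, 2308 and 2619 CPM in human, 1772, 2328 and 2727 CPM in squirrel monkey and 1927, 2363 and 2699 CPM in macaque mice. The groups overlapped for both copies, and the log2 fold changes of human against macaque were -0.12 (95% interval -0.23 to -0.0094) and -0.03 (-0.15 to 0.088).

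Gm11410, the copy of mt-Cytb, the cytochrome b of complex III, had 3189, 3781 and 4475 CPM in human and 3231, 3781 and 4567 CPM in macaque mice, and 2946, 3867 and 4092 CPM in squirrel monkey mice. Human and macaque medians of this copy were the same to the last digit given, with a log2 fold change of -0.03 (95% interval -0.14 to 0.091). Gm10925, the copy of mt-Atp6, a subunit of the proton channel of ATP synthase, had 5998, 7154 and 8090.2 CPM in human, 5532, 7756 and 8336 CPM in squirrel monkey and 6326, 7476 and 8811 CPM in macaque mice (log2 fold change of human against macaque -0.08, 95% interval -0.20 to 0.044).

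In complex IV, Gm29216 (mt-Co1, the catalytic subunit) had 7778, 9780.0 and 11776 CPM in human, 8224, 10748.5 and 12117 CPM in squirrel monkey and 9404, 10910.3 and 13405 CPM in macaque mice. Gm28437 (mt-Co3) had 6899, 8289.9 and 9942 CPM in human, 6790.4, 8630.3 and 9597 CPM in squirrel monkey and 7387, 8633 and 10773 CPM in macaque mice. Their log2 fold changes of human against macaque were -0.16 (95% interval -0.29 to -0.024) and -0.09 (-0.21 to 0.037). The intervals of Gm29216 and Gm13339 exclude 0 before adjustment, and their adjusted p-values were 0.134 and 0.175 by edgeR. Over the 6 uncalled members the intervals ran from -0.29 to 0.091, which bounds the change of each of the 6 taken alone at the 95% level.

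Gm13341 rose in human against macaque mice, where the other 13 tested copies had negative log2 fold changes, and it was also the member with the lowest count, 40 to 544 reads per mouse. In human mice it had 94.2, 209 and 276 CPM (lowest, median and highest), in squirrel monkey mice 88.5, 127 and 267 CPM, and in macaque mice 38.9, 79.6 and 102 CPM. In 11 of 12 human mice and 5 of 8 squirrel monkey mice it was above the highest macaque mouse. The mean was 198 ± 57.3 CPM in human, 147 ± 66.5 in squirrel monkey and 78.6 ± 17.3 in macaque mice (SD, n = 12, 8 and 12). Against macaque mice the log2 fold change was 1.33 ± 0.17 in human mice (SE, adjusted p = 1.27e-06 by edgeR) and 0.88 ± 0.19 in squirrel monkey mice (adjusted p = 0.0197 by edgeR).

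Within the squirrel monkey mice Gm13341 was higher in batch C than in batch D, a difference that did not pass the test. The 4 mice of batch C had 267, 221, 148 and 156 CPM, and the 4 of batch D had 88.5, 96.1, 90.5 and 105 CPM. The mice of D were within or just above the macaque range, and 8 of 8 squirrel monkey mice were above the macaque median. The log2 difference of C minus D was 1.06 ± 0.25 (SE), with an unadjusted p of 0.000154 and an adjusted p of 0.401 by edgeR. Without batch C the difference between squirrel monkey and macaque mice was 0.27 on the log2 scale (adjusted p = 0.708 by edgeR) and the call was lost. Without macaque batch E or F the call was lost too, but the fold change stayed at 0.84 and 0.96 (adjusted p = 0.158 and 0.186 by edgeR). It was also lost without squirrel monkey replicate 1 or 2, both of batch C (highest adjusted p 0.0838 by edgeR). In human mice 9 had 203 to 276 CPM and 3 mice of batch B had 94.2 to 123 CPM.

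The other copy of mt-Co2, Gm28661, is identical to its source and behaved as the abundant copies did. It had 4416, 5048.5 and 5840.1 CPM in human, 4148, 5325 and 5863 CPM in squirrel monkey and 4588, 5194 and 6429 CPM in macaque mice, a log2 fold change of human against macaque of -0.09 (adjusted p = 0.365 by edgeR). Counts of Gm13341 were 1.88, 4.24 and 5.78% of those of Gm28661 in human mice, 1.67, 2.33 and 4.56% in squirrel monkey mice and 0.606, 1.49 and 2.22% in macaque mice (lowest, median and highest).

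In squirrel monkey against macaque mice 1 member passed the test. Gm13341 was the only 1 of 10 called, against 0.64% of all genes (0.387% higher and 0.253% lower), and the median log2 fold change was -0.017. Gm11408 had the next lowest p (unadjusted 0.0154). Human against squirrel monkey microbiota called 0 of 10 members by edgeR, against 0.134% of all genes (0.0158% higher and 0.119% lower), with 4 members at an unadjusted p under 0.05, as were 10% of all genes. Those 4 were Gm28439 (log2 fold change -0.28, p = 0.000975), Gm11408 (-0.21, p = 0.00195), Gm10222 (-0.37, p = 0.00356) and Gm13341 (0.44, p = 0.0219). DESeq2 called Gm11408 and Gm28439 in this comparison, and limma voom called Gm28439 and Gm10222, all lower in human mice. The comparisons with macaque mice share those mice, and each comparison's values are given side by side without a test of their likeness.

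Between batches of the same donor species no member was called by edgeR. Human batch A against B called 0 of 10 (0.0237% of all genes), with 3 at an unadjusted p under 0.05 (11.6% of all genes): Gm28439 (log2 difference -0.26), Gm10222 (-0.38) and Gm11408 (-0.17), all lower in A. These are the members that fell in human against macaque mice. Squirrel monkey batch C against D called 0 of 10 (0% of all genes), with Gm13341 as the only member at an unadjusted p under 0.05 (6.98% of all genes). Macaque batch E against F called 0 of 10 (0% of all genes), with 0 at an unadjusted p under 0.05 (3.15% of all genes), and its 10 log2 differences lay between -0.15 and -0.024.

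Within a mouse, most members kept a nearly constant ratio to each other. Gm28437 had 82.5 ± 3.26% of the counts of Gm29216 (mean and SD over 32 mice), Gm28438 31.5 ± 1.14% of those of Gm10925, and Gm11410 51.8 ± 2.02% of those of Gm10925. Pairs of copies of 1 gene or of neighbouring genes were not all alike. Gm13340 had 13.6 to 18.1% of Gm29216, the other copy of mt-Co1, and Gm4076 had 75.2 ± 3.41% of Gm28439. The medians of the last ratio were 75.4% in human, 74.0% in squirrel monkey and 74.7% in macaque mice. The other copy of mt-Nd5, Gm11407, had medians of 43.9, 45.5 and 50.1% of Gm4076 in the same order, and Gm10222 had 42.1, 46.5 and 51.4% of its neighbour Gm28439. The ratio of both mt-Co2 copies, Gm13341 to Gm28661, varied most among the ratios computed, with a coefficient of variation of 53.7% over the mice.

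The ratio of Gm11408 to Gm11410, neighbours on the mitochondrial genome on opposite strands and both on chromosome 4, set the human mice apart from the others. It was 54.9, 61.7 and 65.0% in human mice, 67.0, 70.4 and 75.6% in squirrel monkey mice and 71.1, 77.4 and 82.8% in macaque mice (lowest, median and highest). All 12 human mice were below all 20 others, while squirrel monkey and macaque mice overlapped. The batch medians were 58.9% in A, 63.0% in B, 69.7% in C, 74.1% in D, 77.2% in E and 78.6% in F. The ratio was chosen with earlier results known and has no test, and the share of all ratios between copies that do the same was not counted.

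**Figure D3:**
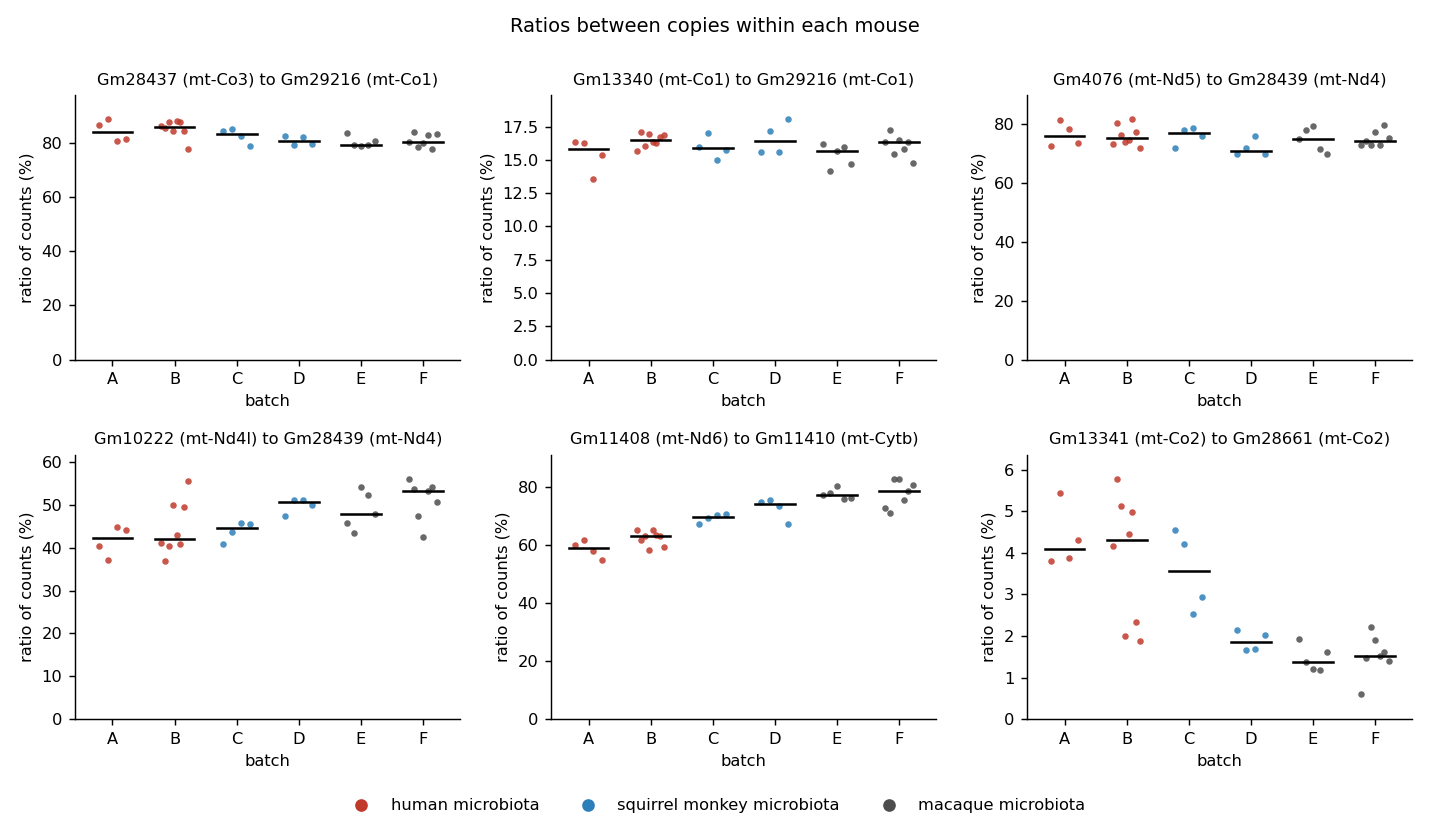
Ratios of counts between copies within each mouse, in percent, by batch, with a bar at each batch median and with colours for the donor species. The upper row shows ratios of 3 pairs whose batch medians stay close together, and the lower row shows Gm11408 to Gm11410 rising from 58.9% in A to 78.6% in F, Gm13341 to Gm28661 falling from 4.24% in human to 1.49% in macaque mice (medians), and Gm10222 to Gm28439, with medians from 42.1% in human to 51.4% in macaque mice.

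Over the 32 mice, with the mean of each donor group removed, the copies other than Gm13341 rose and fell together. Their 78 pairs had Pearson's r of 0.54 to 0.96 (median 0.83) and Spearman's rho of 0.51 to 0.95. Without the 2 mice farthest from the median r was at least 0.47, and with batch means removed at least 0.58. By a permutation test within donor groups all 78 had an adjusted p of at most 0.00076 for r and 0.00494 for rho, adjusted over 91 pairs, where 1e-05 is the smallest p the permutations can give. CPM of 1 library share a total, so the values of a mouse are not free of each other.

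The strongest pair was Gm28437 with Gm29216 (r = 0.96, rho = 0.92, adjusted permutation p = 1.52e-05 and 1.86e-05, r = 0.94 without the 2 farthest mice, 0.96 with batch means removed). The 4 copies of mt-Nd4l, mt-Nd4 and mt-Nd5 had r of 0.81 to 0.93 (median 0.92) among themselves, and r of 0.54 to 0.88 (median 0.74) with the copies of other genes. Those other copies, without Gm13341, had r of 0.69 to 0.96 among themselves (36 pairs, median 0.89), so high r was not particular to the 4. Gm28439 and Gm4076, which lie on different chromosomes and copy neighbouring genes, had r = 0.93 and rho = 0.95 (adjusted permutation p = 1.52e-05 and 1.86e-05, r = 0.92 without the 2 farthest mice, 0.93 with batch means removed). Gm13341 had r of -0.64 to -0.02 with the other 13 copies, and 3 of these pairs passed on both measures. The lowest was with Gm10222 (r = -0.64, rho = -0.60, adjusted permutation p = 9.71e-05 and 0.000629, r = -0.51 without the 2 farthest mice, -0.67 with batch means removed).

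**Figure D4:**
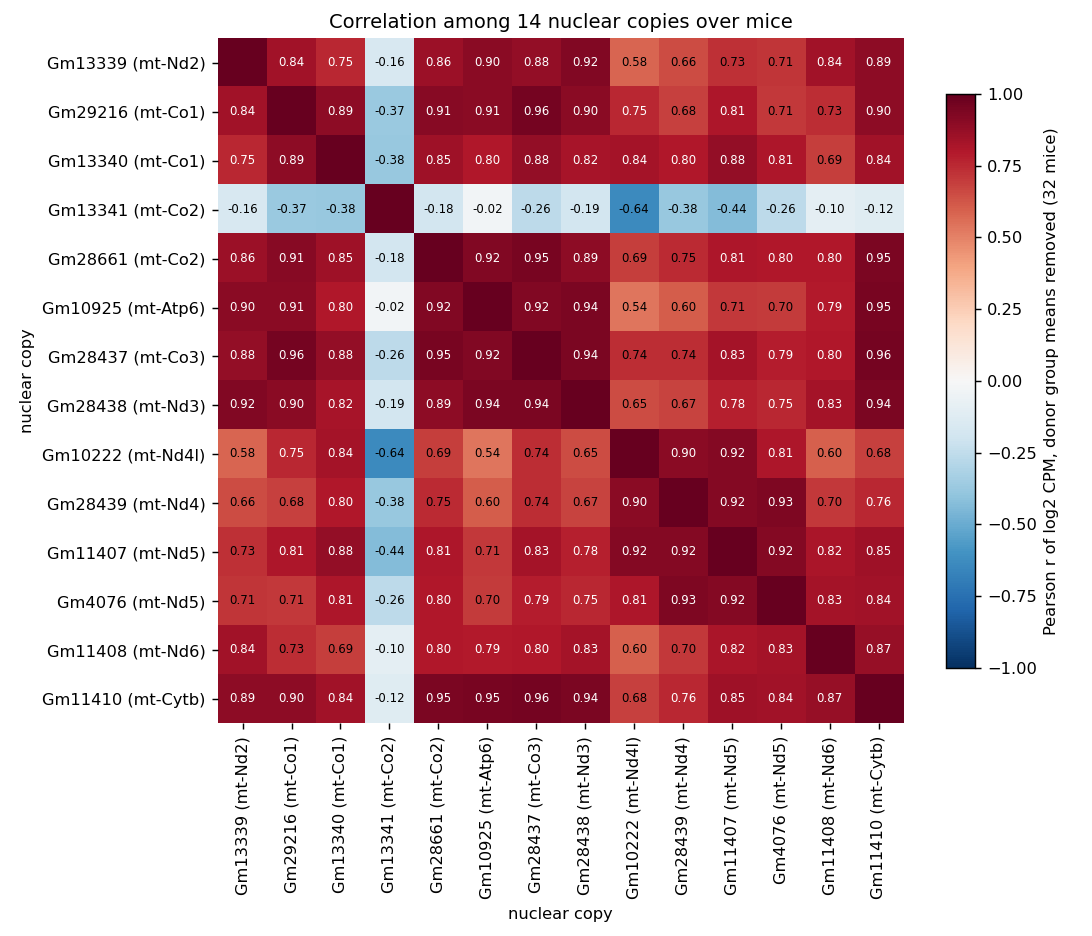
Pearson's r of log2 CPM over 32 mice, with donor group means removed, between each pair of 14 copies in the order of the mitochondrial genes. All pairs without Gm13341 are positive (0.54 to 0.96), and the row of Gm13341 is negative throughout. The copies of mt-Nd4l, mt-Nd4 and mt-Nd5 have r of 0.81 to 0.93 among themselves, and the remaining copies 0.69 to 0.96.

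The 10 genes most like Gm13341 over the mice with donor group means removed, of 12595 compared, were no mitochondrial copies. They were chosen after its values were seen, with r given as a description: Gm43841 (0.97), the ribosomal protein genes Rpl13 (0.93), Rps16 (0.93), Rpl19 (0.92), Rps27a (0.86), Rpl3 (0.85) and Rpl28 (0.85), the chaperone Hspa8 (0.91), the complex I subunit Ndufb4 (0.91) and Nme7 (0.86). Of the 10, 10 rose in human against macaque mice (4.47% of all genes) and 9 in squirrel monkey against macaque mice (0.387%). Their likeness within donor groups chose them, so what they share with Gm13341 between batches C and D and among human mice restates that choice and is given as a description: 10 of 10 had a higher fitted value in C than in D. In the 3 human mice with low Gm13341, Gm43841 had 158 to 252 CPM against 312 to 478 CPM in the other 9, and Rps16 had 28.9 to 36.6 against 62.3 to 86.2 CPM. Of the 10 genes, 8 have another transcript that aligns to their last 300 bases (1 alignment of at least 100 bases whose whole length has 95% identity or more), as do 15.8% of the 12644 tested genes with a GENCODE transcript. Gm43841 and Nme7 are the 2 without one, and the part of this feature in the result was not tested.

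**Figure D5:**
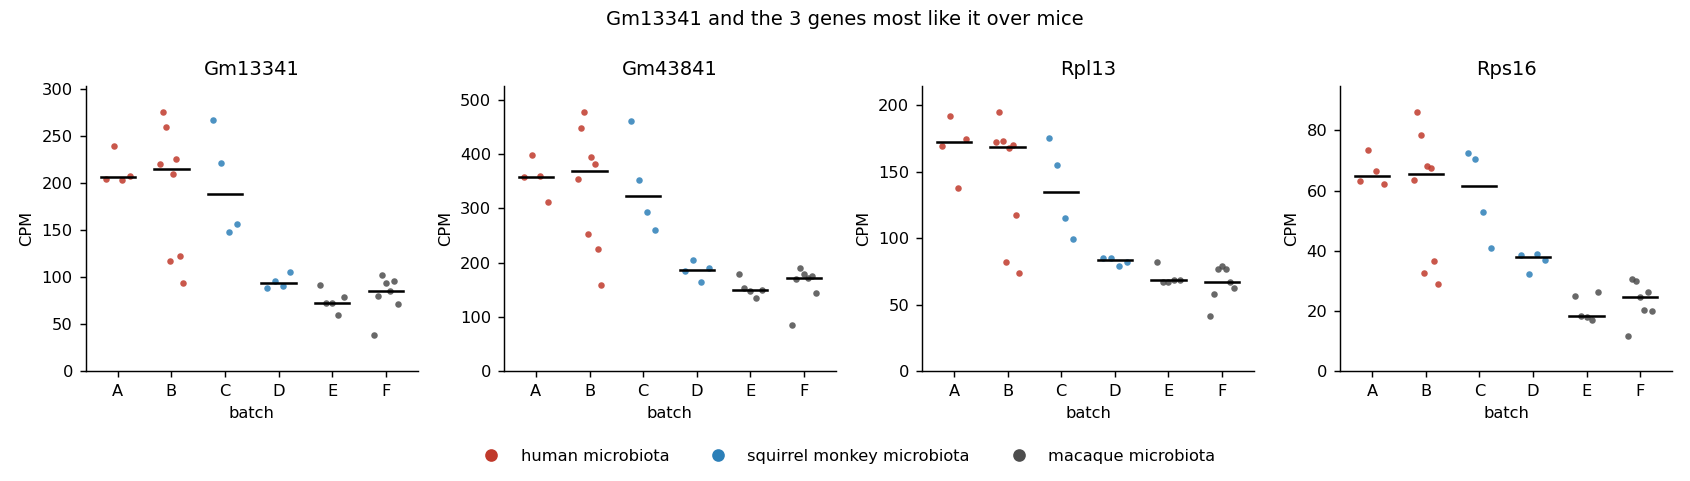
CPM (linear axis from 0) of Gm13341 and of the 3 genes most like it in each of the 32 mice, by batch, with a bar at each batch median. In all 4 panels batches A, B and C have the highest medians and the same 3 mice of batch B are low. Batch D overlaps the macaque batches E and F for Gm13341 and Gm43841. For Rpl13 it overlaps E but not F (79.3 to 85.2 CPM in D, at most 79.2 CPM in F). For Rps16 every mouse of D lies above every macaque mouse (lowest of D 32.3 CPM, highest macaque 30.8 CPM, in F). The shares of all genes without overlap between D and F, or between D and all macaque mice, were not counted.

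Of the genes next to the copies on chromosomes 1 and 2, 3 were tested and none was called. Myo3a, which contains Gm13339, Gm13340 and Gm13341 on its other strand, had 5 counts in all 32 mice and was not tested. Its neighbour Gad2, which makes GABA, had a log2 fold change of human against macaque of 0.03 (adjusted p = 0.913 by edgeR). Col19a1 and Lmbrd1, which lie beside the copies on chromosome 1, had -0.26 and -0.06 (adjusted p = 0.357 and 0.54 by edgeR). The interval of Col19a1, -0.59 to 0.072, includes a change as large as those of the called copies on that chromosome. Strand use in counting is not given in the sources used here, so reads of a copy and of a gene on the other strand cannot be told apart.

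By the rule for the summed members, the named genes of highest r over 32 mice were Ppdpf (0.74), Fam213a (0.73), the ribosomal protein gene Rps24 (0.72), Rcn2 (0.72) and the astrocyte aldolase Aldoc (0.72), of 12093 compared. The lowest were the calcium channel gene Cacna1c (-0.74), the chromatin remodelling subunit Smarcb1 (-0.70), Mum1 (-0.68), Tmem8b (-0.66) and Ylpm1 (-0.66). Of these 10 genes Rps24 alone passed the test in human against macaque mice, with a log2 fold change of 0.21 (adjusted p = 0.0062 by edgeR).

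The counts for nuclear genes that work with the mitochondrial genome stand beside 4.47% higher and 3.54% lower among all genes tested, and 1 call in lists of this size is near that share. Of 19 tested genes of mitochondrial DNA transcription and replication, Polg2, an accessory subunit of the mitochondrial DNA polymerase, rose in human against macaque mice (log2 fold change 0.54, adjusted p = 0.013 by edgeR) and 18 were not called. The median of the list was 0.077. Of 27 tested genes of mitochondrial RNA processing and stability, Tbrg4 rose (0.29, adjusted p = 0.0473 by edgeR) and 26 were not called, with a median of 0.016. Of the members' partners in the respiratory complexes, 5 of 36 complex I genes rose, among them Ndufb4 (1.16), Ndufs5 (0.58), Ndufa12 (0.50) and Ndufa7 (0.34). In complex III 1 of 9 rose (Uqcrq, 0.21), in complex IV 1 of 11 (Cox6c, 0.40) and in complex V 4 of 14 (Atp5g2 0.78, Atp5l 0.71, Atp5g1 0.56 and Atp5o 0.20). None of the genes of these 6 lists fell, and 0 of 18 other abundant mitochondrial proteins were called, with 2 at an unadjusted p under 0.05, as were 23.1% of all genes. The summed level of the 36 complex I genes was 6673 to 9448 CPM in human and 6624 to 8892 CPM in macaque mice. Their median log2 fold change was 0.078, and 31 of the 36 were not called. Ndufb4, which had the largest value named, is also among the 10 genes most like Gm13341.

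The cell types of the tissue were checked by markers, none of which was at 0 in all mice. Summed neuron markers had 3216 to 4640 CPM over all mice. In human against macaque mice Slc17a7 of excitatory neurons rose by 0.25 and the synaptic Syt1 fell by 0.17 on the log2 scale, and the other 3 neuron markers were not called. Oligodendrocyte markers had a median log2 fold change of 1.14 in the same comparison, with Mog alone of 5 called (1.43, adjusted p = 0.0481 by edgeR), and their sum ran from 623 to 7915 CPM in human and 542 to 2910.2 CPM in macaque mice. Igf2 alone of 5 meningeal markers was called (0.99), and 0 of the astrocyte, microglia, endothelial and blood markers. In bulk tissue, fewer cells of a type and less RNA per cell cannot be told apart, and the part of these marker differences in the members' results was not tested.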

How the data were processed

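Frontal cortex RNA of 32 mice was measured with TagSeq. The authors deposited raw counts per Ensembl gene, whole numbers with totals of 1035036 to 2089308 per mouse (median 1534710.5). The build is GRCm39, per the submitters' processing notes. The aligner, the counting tool, the treatment of reads that fit several places and the use of strand were not given in the sources used here. Of the table's columns, 3 matched no sample and were not used. Gene IDs were paired with symbols by a name table, and 76 rows without a symbol held 0.031% of counts.

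Counts were tested with edgeR 4.0.16 in R 4.3.3: filterByExpr on donor group (12651 genes), TMM factors (0.955 to 1.04), quasi-likelihood fits on donor group and on batch, Benjamini-Hochberg adjustment, threshold 0.05. Fold changes carry SE and 95% intervals. Fits were tested on simulated data. CPM use TMM-scaled totals. P-values measure the spread between mice, and 0 of 160 pairs of mice of a group were identical. For correlations 100000 permutations were drawn. Copies were found with BLAST 2.17.0 in GENCODE M21 transcripts, which belong to another build, so no coordinates are given. Named genes are the 10 members, further copies, up to 4 genes of smallest p per list, and the 5 highest and 5 lowest correlations with the summed members. Alternatives were other scalings, filters and tests (DESeq2 1.42.0, limma 3.58.1), a depth covariate, sums per batch, and leaving out batches or mice. Members and lists were chosen with earlier results of these data known. Of 8 nuclear retained RNAs only Snhg11 was in the table (log2 fold change of human against macaque -0.10, not called).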

Additional observations from a re-analysis of the deposited data

Results flagged for a closer look

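Within the squirrel monkey mice and within each batch, 77 sets of values were searched for a mouse that stands apart from the others of its set (Dixon's test), and 8 values were found, where chance gives about 1 in 20 sets.

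Of these, 5 belong to squirrel monkey replicate 5 of batch D, the lowest of the 8 squirrel monkey mice in each. It had 6790.0 CPM of Gm28437 (the next lowest had 8461), 5532 CPM of Gm10925 (next 7056), 2946 CPM of Gm11410 (next 3642), 1772 CPM of Gm28438 (next 2300.0) and a summed share of the members of 3.59% of counts (next 4.34%). The summed share and the 4 copies are not independent values. Leaving this mouse out changed no call.

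Human replicate 2 of batch A had the lowest Gm13339 of its batch, 5009 CPM against 5965 in the next, and the highest Gm13341, 240 CPM (239.7) against 208. Its library total was the highest of all mice, 2089308 counts. Human replicate 8 of batch B had the highest Gm10925 of its batch, 8090.0 CPM against 7280.0 in the next.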

How the results depend on the processing

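The count of 4 members called in human against macaque mice was 2 with the library total as a covariate, 2 without batch A and 2 without batch F, with Gm13341 and Gm11408 called in each fit, and the F-test for any donor group gave 2 in the same 3 fits. The 1 member called in squirrel monkey against macaque mice became 0 without batch C, E or F, and 0 to 1 with 1 mouse left out. Human against squirrel monkey mice, with 0 called, gave 2 with DESeq2, 2 with limma voom, 2 without batch B and 1 without batch C. Between batches the count stayed at 0 in all fits run. Over 1410 refits of single fold changes, 1390 kept their call, 13 lost it, 7 gained it and 0 called values changed sign, while 65 uncalled values did. Gm13341 in human against macaque mice ranged from 1.18 to 1.43 and Gm11408 from -0.49 to -0.30 over all fits on other settings or fewer batches. Without Gm29216 the members' median share was 3.18% in human, 3.38% in squirrel monkey and 3.31% in macaque mice. At 90% identity 7 further copies were found in place of 3. The causes of these changes were not tested. No paired analysis was possible because the labels pair no mice between groups. The replicate numbers used here only count the mice within a donor group. Gm13341 had the fewest counts, 40 to 544 per mouse, and is the least precise.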
